A study of Homo sapiens with 12 samples.

Results

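The measurement described here is a difference between differences: how far the answer of U87 cells to JQ1 changed once the line had acquired resistance to that compound. For each gene the log2 fold change of JQ1 over DMSO in the parental cells was subtracted from that in the resistant cells. A value above 0 means that the level after JQ1, relative to DMSO, was higher in the resistant line, whether because the gene fell less or because it rose more. The test used 8 of the 12 libraries of the series, 2 for each of parental cells with DMSO, parental cells with JQ1, resistant cells with DMSO and resistant cells with JQ1. The remaining 4 libraries, from both lines treated with dBET6, entered only 1 side comparison at the end.

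U87 is an established human glioblastoma cell line. The resistant cells are labelled as U87-MG that had acquired resistance to JQ1. The labels do not say how the resistance was selected, whether the line is 1 clone, or whether it was kept in the compound before the experiment. All groups were treated for 24 h, with the solvent DMSO or with 1000 nM of JQ1 or dBET6, and polyA RNA was sequenced. Nothing in the labels says that replicates were separate cultures, so every p-value below measures only the spread between these libraries.

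BET proteins bind acetylated histones through their bromodomains and help RNA polymerase II to pass from pausing into elongation. JQ1 fills the bromodomain pocket and releases the proteins from chromatin. HEXIM1, an inhibitor of the elongation kinase P-TEFb, is widely used as a marker of BET inhibition because its RNA rises. Receptor tyrosine kinases, the ERK cascade with its immediate early and feedback genes, and MYC are pathways through which glioma cells drive growth. NRF2 is the transcription factor of the oxidative stress response, and it acts through antioxidant response elements.

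The 8 libraries held 31346557 to 40388589 estimated counts. Replicates correlated at a Pearson r of 0.990 to 0.993 across genes, which are not independent replicates. The 50 most abundant genes took 12.4% to 12.9% of the counts with DMSO and 18.0% to 18.5% with JQ1. Mitochondrially encoded mRNAs took 1.46% to 1.65% in parental DMSO, 1.55% to 2.02% in parental JQ1, 1.76% to 2.13% in resistant DMSO and 2.35% to 2.70% in resistant JQ1. CDKN2A, which U87 is known to have lost, was listed at 0 in all 8 libraries, and the neighbouring CDKN2B and MTAP stayed under 1 CPM. Vimentin, a mesenchymal filament, was the most abundant of the glioma markers. All 6 lymphocyte markers stayed under 1 CPM in every library. So did 4 of the 6 myeloid markers (PTPRC, CD14, ITGAM and AIF1), while CD68, a lysosomal protein that is not restricted to myeloid cells, ranged from 366 to 487 CPM and CSF1R from 1.4 to 22.9 CPM. Of the 6 astrocyte markers AQP4, S100B and ALDH1L1 stayed under 1 CPM, GFAP ranged from 0.501 to 1.77 CPM, SLC1A2 from 0.344 to 4.93 CPM and SLC1A3 from 10.3 to 42.7 CPM.

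The JQ1 response differed between the lines in 9.65% of the genes tested, and the estimates lay within 0.5 log2 of each other in 73.1%. Of 17556 genes tested, 864 (4.92%) had a higher and 831 (4.73%) a lower JQ1 response in resistant cells at an adjusted p under 0.05, by edgeR's quasi-likelihood test with Benjamini-Hochberg adjustment. All 1695 were separated, in the sense that every JQ1 to DMSO difference between single libraries of one line lay beyond every such difference of the other line. Separation was computed from the same libraries as the test, so it is no further support. The changes were mostly modest. The median absolute log2 difference of the called genes was 0.60, beside 0.26 over all genes, and 158 higher and 212 lower genes reached 2-fold. The called share depended on level, from 1.71% of genes under 1 CPM to 18% of those over 100 CPM. JQ1 itself moved many more genes: 26.6% rose and 29.0% fell in parental cells, and 23.8% rose and 26.9% fell in resistant cells. With total counts 3567 rose and 6275 fell in parental cells, and 2578 rose and 6494 fell in resistant cells. A difference between responses is estimated less precisely than 1 response (SE of 0.178 against 0.126 for MMP1). The counts of the 2 kinds of test are therefore not like for like. Over the 10606 genes with a mean of at least 5 CPM (scaled counts per library of standard size), the responses of the lines had a Pearson r of 0.875, a description across genes from groups that share no library.

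Most called genes with the same direction in both lines responded less in the resistant cells. Among the 1695, the response had the same sign in both lines and was smaller in the resistant cells for 756, and was larger there for 383. For 556 the estimates had opposite signs. Opposite responses that each passed the threshold were rarer: 68 genes fell in parental and rose in resistant cells, and 56 did the reverse. Of the 864 higher genes, 301 fell in both lines and 234 fell in parental cells without passing the threshold in resistant cells. Of the 831 lower genes, 240 rose in both lines and 231 rose in parental cells without passing it in resistant cells. A tilt towards parental cells was also present over all genes tested, on the scale used here. There 1454 rose and 1310 fell past the threshold in parental cells alone, against 960 and 944 in resistant cells alone. The shapes were counted on this scale only. With libraries scaled to the mitochondrially encoded mRNAs, 1462 genes rose and 5414 fell in parental cells, whatever the other line did. In resistant cells 569 rose and 8051 fell, so the tilt was not kept there for falling genes. These counts describe shapes and are no further test, since they use the same libraries as the difference.

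**Figure D1:**
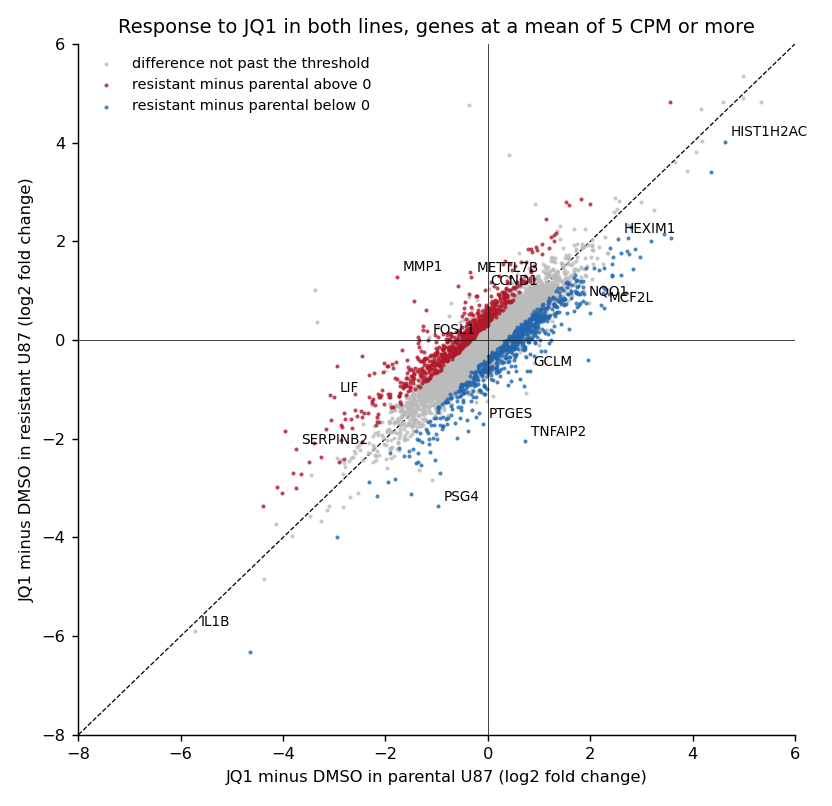
Log2 fold change of JQ1 over DMSO in parental cells (x axis) against resistant cells (y axis) for 10606 genes with a mean of at least 5 CPM, 2 of which lie outside the axes; red and blue points passed the test of the difference and the dashed line marks equal responses. Most points follow the line, and MMP1, which fell in parental and rose in resistant cells, lies far above it, while TNFAIP2 lies far below.

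The number of called genes depended on single resistant libraries and on the scale. Without resistant DMSO replicate 1 or 2, 551 or 434 genes were higher and 468 or 379 lower. Without resistant JQ1 replicate 1 or 2, 531 or 382 were higher and 377 or 395 lower. Higher genes were 51.0% of the calls with the scaling used here (TMM), 36.8% with total counts and 18.0% when libraries were scaled to the mitochondrially encoded mRNAs. That last scaling moved the median difference of all genes from -0.02 to -0.28 and left 55 higher and 251 lower calls. Counts and directions below are therefore relative to the bulk of genes, and the values with mitochondrial scaling are given beside the main gene groups. Of the 110 genes named by rule, 73 lost their call with that scaling, 49 on log2(TPM + 1) and 44 on log2(FPKM + 1). A further 2 on log2(TPM + 1) and 3 on log2(FPKM + 1) changed sign and did not pass. The part of the mitochondrial mRNA share in the result was not tested.

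MMP1, LIF, METTL7B and TGFA were among the 12 called protein-coding genes with the largest positive differences, where genes averaging under 5 CPM or with overlapping libraries were left out. MMP1, an interstitial collagenase, stood at 20.4 and 17.0 CPM with DMSO and 5.77 and 5.23 CPM with JQ1 in parental cells, against 5.45 and 5.17 CPM with DMSO and 12.9 and 12.9 CPM with JQ1 in resistant cells. It fell in parental cells and rose in resistant cells, so that the groups crossed. The log2 difference was 3.05 ± 0.18 (SE, adjusted p = 5.76e-09). LIF, a cytokine of the interleukin 6 family, stood at 67.9 and 75.1 CPM with DMSO and 10.1 and 7.65 CPM with JQ1 in parental cells, against 140 and 140 CPM with DMSO and 61.9 and 63.5 CPM with JQ1 in resistant cells. It fell in both lines (log2 -3.00 and -1.16), and both resistant libraries with JQ1 lay just below the parental libraries with DMSO. The log2 difference was 1.84 ± 0.14 (SE, adjusted p = 1.35e-07). METTL7B, a methyltransferase-like membrane protein, stood at 41.6 and 41.6 CPM with DMSO and 33.9 and 32.8 CPM with JQ1 in parental cells, against 53 and 59.3 CPM with DMSO and 132 and 139 CPM with JQ1 in resistant cells, a small fall in parental and a rise in resistant cells. Its difference was 1.59 ± 0.11 (SE, adjusted p = 7.38e-08).

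TGFA, a ligand of the EGF receptor, stood at 10.7 and 12 CPM with DMSO and 4.29 and 5.16 CPM with JQ1 in parental cells, against 6.24 and 6.52 CPM with DMSO and 8.15 and 7.34 CPM with JQ1 in resistant cells, and its log2 difference was 1.55 ± 0.19 (SE, adjusted p = 3.86e-05). It fell in parental cells (-1.27) and did not pass the test in resistant cells (0.28, adjusted p = 0.0931). MAFF, a small MAF transcription factor, shared that pattern, with 26.6 and 27.1 CPM with DMSO and 11.8 and 10.3 CPM with JQ1 in parental cells, against 12.5 and 11.9 CPM with DMSO and 13.8 and 14.2 CPM with JQ1 in resistant cells. SERPINB2, an inhibitor of plasminogen activators, fell in both lines, from 71.7 and 69.5 CPM to 5.02 and 5.51 CPM in parental and from 42.2 and 36.3 CPM to 8.82 and 8.10 CPM in resistant cells. IL1RN, the interleukin 1 receptor antagonist, also fell in both (log2 -2.59 and -1.10). NEK10, a kinase of the NIMA family, and C3orf52 fell in parental cells (-1.20 and -0.34) and rose in resistant cells (0.60 and 1.38). TMCC3 fell in both lines (log2 -2.95 and -0.53). From MAFF to TMCC3 the log2 differences lay between 1.47 (MAFF) and 2.42 (TMCC3), with 1.53 for SERPINB2, 1.49 for IL1RN, 1.80 for NEK10 and 1.72 for C3orf52. TMCC3 and TGFA did not pass on log2 TPM or FPKM, where the values were 0.92 to 1.78 for TMCC3 and 1.19 to 1.55 for TGFA, and NEK10 did not pass on log2 TPM (0.85 and 1.15). The summed transcripts of C3orf52 made up 0.765 of its level in the deposited gene table, so its counts are partial.

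HAS1 and TIMP3 were among the leading genes from very different starting levels. HAS1, a hyaluronan synthase, stood at 22.1 and 23.0 CPM with DMSO and 2.61 and 2.70 CPM with JQ1 in parental cells, against 0.91 and 1.64 CPM with DMSO and 0.48 and 0.66 CPM with JQ1 in resistant cells. TIMP3, a matrix metalloproteinase inhibitor, stood at 54.7 and 52.0 CPM with DMSO and 35.0 and 36.4 CPM with JQ1 in parental cells, against 0.24 and 0.23 CPM with DMSO and 0.51 and 0.51 CPM with JQ1 in resistant cells. Both were far scarcer in the resistant line without JQ1 (log2 -4.17 and -7.81), so their differences of 1.96 and 1.68 rest on few counts in that line. HAS1 did not pass without resistant JQ1 replicate 2 (adjusted p = 0.0814), nor on log2(TPM + 0.1), and TIMP3 did not pass with mitochondrial scaling or on log2 TPM or FPKM.

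At the other end, TNFAIP2, a gene induced by tumour necrosis factor, stood at 29.0 and 33.4 CPM with DMSO and 53.4 and 50.1 CPM with JQ1 in parental cells, against 2.29 and 1.78 CPM with DMSO and 0.38 and 0.6 CPM with JQ1 in resistant cells. It rose in parental and fell in resistant cells, with a log2 difference of -2.78 ± 0.27 (SE, adjusted p = 1.98e-06), and was already scarce in the resistant line with DMSO. On log2(TPM + 0.1) it did not pass. MCF2L, a guanine nucleotide exchange factor, stood at 55.8 and 70.2 CPM with DMSO and 316 and 288 CPM with JQ1 in parental cells, against 52.4 and 59.6 CPM with DMSO and 92.1 and 84.0 CPM with JQ1 in resistant cells. It rose in both lines, and all parental JQ1 libraries were above all resistant ones. The log2 difference was -1.61 ± 0.14 (SE, adjusted p = 8.45e-06).

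PTGES, a prostaglandin E synthase, stood at 382 and 447 CPM with DMSO and 394 and 388 CPM with JQ1 in parental cells, against 85.6 and 86.9 CPM with DMSO and 26.1 and 27.0 CPM with JQ1 in resistant cells. Parental levels did not pass the test of a change (-0.09, adjusted p = 0.351), while resistant levels fell (log2 -1.70). RXRA, a nuclear receptor, showed a small fall in parental cells, from 61.9 and 65.2 CPM to 49.6 and 47.7 CPM, and a larger one in resistant cells, from 29.2 and 27.6 CPM to 6.94 and 8.86 CPM. The log2 differences of PTGES and RXRA were -1.61 ± 0.11 (SE, adjusted p = 7.38e-08) and -1.46 ± 0.14 (SE, adjusted p = 1.98e-06). P2RX6, an ATP-gated channel, and PSG4, a pregnancy-specific glycoprotein, also fell in both lines and further in resistant cells (-1.76 and -2.40). PSG4 has near-identical paralogs between which reads are divided, so its level is uncertain.

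CDH23, an atypical cadherin, and JAG2, a Notch ligand, rose in both lines and less in resistant cells (-1.75 and -1.51). Neither difference passed on log2 TPM or FPKM, where it was -1.95 to -1.23 for CDH23 and -0.97 to -0.38 for JAG2, and JAG2 did not pass with length-scaled TPM either (-1.02). In parental cells CDH23 stood at 2.44 and 2.65 CPM with DMSO and 19.55 and 13.37 CPM with JQ1. In resistant cells it stood at 1.2 and 1.41 CPM with DMSO and 2.75 and 2.25 CPM with JQ1. It therefore reached a mean of 5 CPM only through parental JQ1. TMEM86A rose in parental cells (0.71) and fell in resistant cells (-0.94). COL4A2, a basement membrane collagen chain, fell from 9.66 and 10.1 CPM to 0.33 and 0.46 CPM in parental and from 9.59 and 11.4 CPM to 0.16 and 0.095 CPM in resistant cells. Its difference of -1.68 (adjusted p = 0.0341) compares levels close to 0 and did not pass without parental JQ1 replicate 2, resistant DMSO replicate 2 or either resistant JQ1 library, nor with all 12 libraries in the fit, DESeq2, mitochondrial scaling or any TPM or FPKM value. SLITRK5, a neuronal membrane protein at 0.91 and 0.8 CPM in resistant DMSO and 0.13 and 0.063 CPM in resistant JQ1, had a difference of -1.63 in counts and of 0.98 on log2(TPM + 1), so it has no settled direction.

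**Figure D2:**
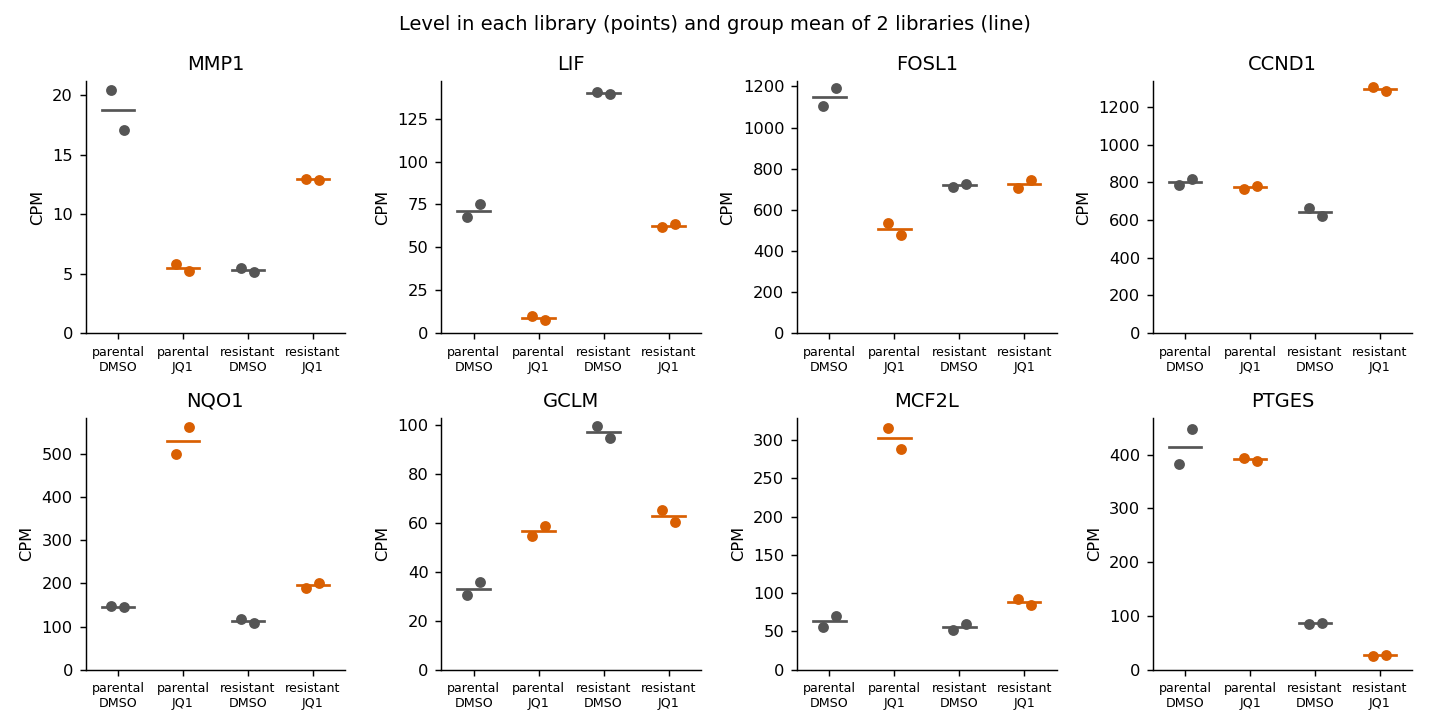
CPM (y axis, from 0) of 8 genes in each of the 8 libraries (points), with the mean of the 2 libraries of a group as a line; grey is DMSO and orange JQ1. MMP1 falls from 20.4 and 17.0 CPM to 5.77 and 5.23 CPM in parental cells and rises from 5.45 and 5.17 CPM to 12.9 and 12.9 CPM in resistant cells, and NQO1 rises in both lines but further in parental cells.

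Immediate early genes and the feedback regulators of the ERK cascade formed the list with the largest share of called members. Of 32 tested, 17 had a higher and 4 a lower JQ1 response in resistant cells, and the median log2 difference was 0.52, beside 9.65% called and a median of -0.02 over all genes. The median response of the list was -0.24 in parental and 0.22 in resistant cells. FOSL1, an AP-1 subunit, stood at 1107 and 1191 CPM with DMSO and 538 and 479 CPM with JQ1 in parental cells, against 711 and 727 CPM with DMSO and 704 and 745 CPM with JQ1 in resistant cells. It fell in parental cells (log2 -1.18) and did not pass in resistant cells (0.01, adjusted p = 0.924). SPRY2, a feedback inhibitor of receptor tyrosine kinase signalling, had the same pattern, at 88.7 and 94.1 CPM with DMSO and 45.6 and 44.4 CPM with JQ1 in parental cells, against 156 and 151 CPM with DMSO and 163 and 167 CPM with JQ1 in resistant cells. The log2 differences were 1.19 ± 0.11 (SE, adjusted p = 1.49e-06) for FOSL1 and 1.13 ± 0.10 (SE, adjusted p = 1.1e-06) for SPRY2.

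KLF6, a Krüppel-like factor, fell slightly in parental cells (-0.20) and rose in resistant cells (0.90), with a difference of 1.10. EGR1, a zinc finger factor induced by growth signals, rose in both lines and further in resistant cells, at 34.4 and 34.3 CPM with DMSO and 53.5 and 45.6 CPM with JQ1 in parental cells, against 94.6 and 98.7 CPM with DMSO and 283 and 266 CPM with JQ1 in resistant cells. SPRY4 and the ERK phosphatase DUSP6 fell in both lines and less in resistant cells (differences 0.99 and 0.64), and so did ETV4, an ETS factor downstream of ERK (1.07). Among the genes of this and the following groups, those beyond the 3 with the smallest p of each list were named after their values were seen. IER3 fell in parental cells only by its own test (-0.81 against 0.10), and the test of the difference gave 0.91 ± 0.12 (SE, adjusted p = 6.69e-05). FOS, at 1.67 to 14.8 CPM, rose in both lines with a difference of 0.83. The lower members were FOSL2 (-0.66), ATF3 (-0.64), DUSP4 (-0.48) and ETV1 (-0.34), so not all feedback genes moved one way.

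With mitochondrial scaling none of the 32 passed, and the list's median of 0.26 stood beside -0.28 for all genes. Leaving out 1 library kept 13 to 17 higher members. The lower members became 2 without parental JQ1 replicate 2, resistant DMSO replicate 1 or 2 or resistant JQ1 replicate 2, and 1 without resistant JQ1 replicate 1.

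**Figure D3:**
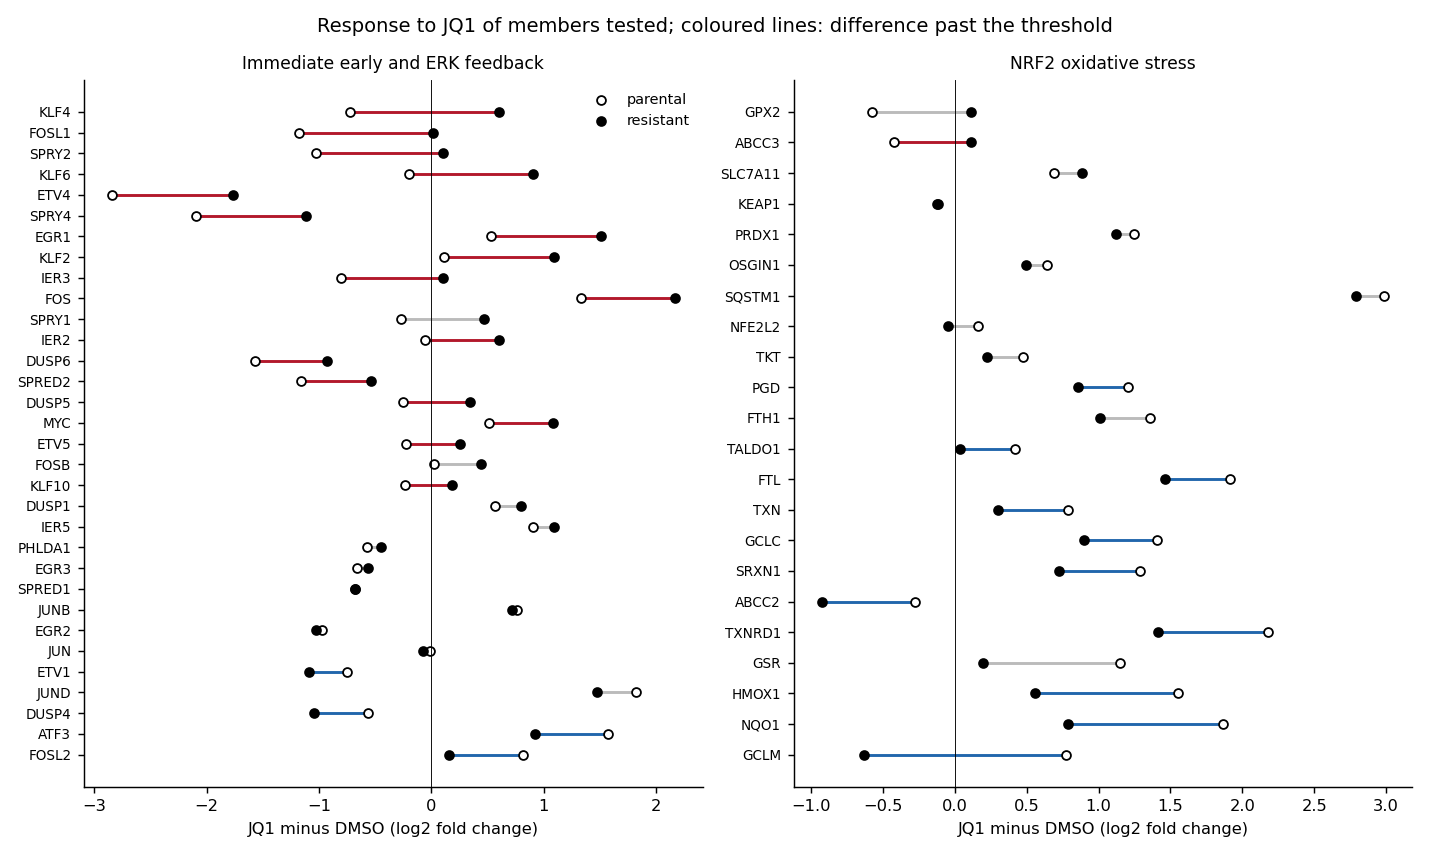
Log2 fold change of JQ1 over DMSO (x axis) in parental (open) and resistant cells (filled) for the 32 tested members of the immediate early and ERK list (left) and 22 of the 23 of the NRF2 list (right); a coloured line marks a difference past the threshold, red for higher and blue for lower. On the left 17 lines are red and 4 blue, and on the right 1 is red and 11 are blue.

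The NRF2 list, of oxidative stress genes, held more lower than higher calls. Of 23 tested members of the NRF2 list, 12 had a lower and 1 a higher JQ1 response in resistant cells (56.5% called, beside 9.65% of all genes). The median log2 difference of the list was -0.38. The median response was 1.15 in parental and 0.56 in resistant cells. NQO1, a quinone reductase, stood at 147 and 145 CPM with DMSO and 499 and 561 CPM with JQ1 in parental cells, against 118 and 109 CPM with DMSO and 189 and 202 CPM with JQ1 in resistant cells. It rose in both lines, and both parental JQ1 libraries lay far above the resistant ones. The log2 difference was -1.08 ± 0.11 (SE, adjusted p = 2.65e-06). HMOX1, haem oxygenase, stood at 207 and 260 CPM with DMSO and 697 and 673 CPM with JQ1 in parental cells, against 986 and 987 CPM with DMSO and 1361 and 1539 CPM with JQ1 in resistant cells. The resistant line already held more HMOX1 RNA with DMSO (log2 2.08) than parental cells reached with JQ1, and its log2 difference was -1.0 ± 0.13 (SE, adjusted p = 0.000119).

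GCLM, the modifier subunit of the enzyme that starts glutathione synthesis, stood at 30.7 and 35.7 CPM with DMSO and 54.9 and 58.6 CPM with JQ1 in parental cells, against 99.7 and 94.7 CPM with DMSO and 65.3 and 60.5 CPM with JQ1 in resistant cells. It rose in parental and fell in resistant cells, and between the JQ1-treated lines the log2 ratio was 0.15, beside 1.55 with DMSO. The log2 difference was -1.40 ± 0.12 (SE, adjusted p = 8.11e-07). TXNRD1, thioredoxin reductase, stood at 256 and 233 CPM with DMSO and 1028 and 1181 CPM with JQ1 in parental cells, against 174 and 154 CPM with DMSO and 431 and 440 CPM with JQ1 in resistant cells, a rise in both lines that was smaller in resistant cells (-0.77 ± 0.12 SE, adjusted p = 0.00031). SRXN1 (-0.57), GCLC (-0.51), TXN (-0.48), PGD (-0.35), TALDO1 (-0.38) and the ferritin light chain FTL (-0.45) followed, enzymes or carriers of glutathione, thioredoxin, NADPH and iron. ABCC2, an export pump, fell in both lines and further in resistant cells (-0.65), a call that was lost with mitochondrial scaling and on TPM or FPKM. The higher member was ABCC3, another export pump (0.53, adjusted p = 0.0324), which did not pass without parental DMSO replicate 2, parental JQ1 replicate 2 or any one of the resistant libraries.

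NFE2L2, the gene of NRF2 itself, did not pass the test of the difference (-0.21, adjusted p = 0.236), nor did KEAP1, its inhibitor (-0.00, adjusted p = 0.99). With mitochondrial scaling 4 members were lower and none higher, at a median of -0.64 beside -0.28 for all genes. GCLM, NQO1 and HMOX1 kept their call under every alternative fit run for them.

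The promoters of GCLM and TXNRD1 are shown as those of called members that hold the letters of an antioxidant response element. Sequences are RefSeq's for GRCh38.p14, from 250 bases before the gene's start to 30 bases after it, 5′ to 3′ on the gene's strand, with TGACNNNGC on either strand in capitals. GCLM lies at chr1:93909401-93909680 (minus strand), and the match begins 34 bases before the start.
GCLM: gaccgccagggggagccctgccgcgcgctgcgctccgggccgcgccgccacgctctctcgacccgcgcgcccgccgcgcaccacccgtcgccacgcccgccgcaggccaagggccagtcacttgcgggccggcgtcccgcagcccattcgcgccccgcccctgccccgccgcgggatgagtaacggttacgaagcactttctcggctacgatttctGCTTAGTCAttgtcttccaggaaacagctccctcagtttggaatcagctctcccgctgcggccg
TXNRD1 lies at chr12:104215529-104215808 (plus strand), with matches that begin 99 and 8 bases before the start.
TXNRD1: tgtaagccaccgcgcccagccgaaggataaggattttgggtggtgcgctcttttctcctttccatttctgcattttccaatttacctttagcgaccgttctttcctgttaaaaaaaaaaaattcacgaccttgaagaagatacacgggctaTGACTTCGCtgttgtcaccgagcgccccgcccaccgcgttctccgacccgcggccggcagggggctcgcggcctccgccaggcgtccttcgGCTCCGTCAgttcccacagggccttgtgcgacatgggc
The letters stood in 4 of the 16 NRF2 list promoters that could be matched (25%), beside 13.7% of the 10220 matched promoters of tested protein-coding genes. They stood in 14.8% of the matched promoters of higher and in 14.4% of those of lower genes. A match is a description and not a binding site, and elements outside this window were not searched.

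The called genes of ribosome biogenesis all had higher responses in resistant cells. Of 39 tested members of the ribosome biogenesis list 16 were higher and none lower (41% called, beside 9.65% of all genes). The median log2 difference of the list was 0.30. NOP56, a core protein of the box C/D snoRNPs, stood at 107 and 113 CPM with DMSO and 139 and 132 CPM with JQ1 in parental cells, against 86.5 and 86.6 CPM with DMSO and 164 and 174 CPM with JQ1 in resistant cells, and its difference was 0.66 ± 0.10 (SE, adjusted p = 0.00027). NPM1, nucleophosmin, rose from 954 and 921 CPM to 1690 and 1704 CPM in resistant cells, beside 1231 and 1072 CPM and 1261 and 1458 CPM in parental cells. DKC1, the pseudouridine synthase dyskerin, fell in parental cells (-0.50) and was at 0.11 in resistant cells. LYAR (0.78), RRP12 (0.60) and RRP9, a U3 snoRNP protein (0.51), were also higher. The count became 9 without resistant DMSO replicate 2 and 8 without resistant JQ1 replicate 2. With mitochondrial scaling none passed, at a median of 0.04, and RRP12 did not pass on TPM either.

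The E-box CACGTG, which MYC and MAX can bind, stood in 10 of the 34 matched promoters of this list (29.4%), beside 9.63% of all matched promoters of tested protein-coding genes. It stood in 10.2% of the matched promoters of higher and in 11.5% of those of lower genes. RRP9 is shown as 1 of the called members that hold it. It lies at chr3:51941875-51942154 (minus strand, same build and window), with the E-box in capitals from 5 bases before the start.
RRP9: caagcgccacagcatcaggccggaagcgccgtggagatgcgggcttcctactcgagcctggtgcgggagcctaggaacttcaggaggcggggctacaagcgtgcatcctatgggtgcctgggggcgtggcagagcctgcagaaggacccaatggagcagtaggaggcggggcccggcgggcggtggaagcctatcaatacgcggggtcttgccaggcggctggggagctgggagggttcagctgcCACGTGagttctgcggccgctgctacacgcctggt

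Cytosolic ribosomal protein genes had median responses of 0.28 in parental and 0.49 in resistant cells. Of 54 tested 12 were higher and none lower in the difference, with a median of 0.21. This was 22.2% called, beside 9.65% of all genes and 18% of genes over 100 CPM. RPL13A stood at 1185 and 1207 CPM with DMSO and 1419 and 1523 CPM with JQ1 in parental cells, against 1086 and 1155 CPM with DMSO and 1973 and 2158 CPM with JQ1 in resistant cells, and its difference was 0.58 ± 0.11 (SE, adjusted p = 0.00166). The count became 4 without parental JQ1 replicate 1, 5 or 4 without resistant DMSO replicate 1 or 2, and 1 without resistant JQ1 replicate 2, and none passed with mitochondrial scaling, where the median was -0.05. Processed pseudogenes share sequence with many of these genes, which makes their counts less certain.

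DNA replication genes that passed were mostly those that fell less in resistant cells. Of 49 tested members of the E2F list 11 were higher and 1 lower (24.5% called, beside 9.65% of all genes). The median difference was 0.22, and the median responses were -0.83 in parental and -0.63 in resistant cells. MCM3, a subunit of the replicative helicase, fell from 313 and 297 CPM to 148 and 145 CPM in parental and from 256 and 247 CPM to 161 and 180 CPM in resistant cells. CDC45, a helicase cofactor, had a difference of 0.65 ± 0.13 (SE, adjusted p = 0.00265), which did not pass on TPM or FPKM. MCM3 did not pass on log2 TPM. The higher count became 6 without resistant DMSO replicate 1 or resistant JQ1 replicate 1 and 4 without replicate 2 of either group, and with mitochondrial scaling none passed (median -0.03). Of 46 mitotic genes tested 2 were higher and 2 lower, at a median of -0.05, a share near the background.

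Among G1 regulators 4 were higher and 1 lower of 16 tested (31.2% called, beside 9.65% of all genes), at a median of 0.26. CCND1, cyclin D1, stood at 787 and 818 CPM with DMSO and 765 and 781 CPM with JQ1 in parental cells, against 664 and 622 CPM with DMSO and 1303 and 1286 CPM with JQ1 in resistant cells. Parental levels did not pass the test of a change (-0.05, adjusted p = 0.537), resistant levels rose by 1.01 on the log2 scale, and both resistant JQ1 libraries lay above all 6 others. The log2 difference was 1.06 ± 0.10 (SE, adjusted p = 1.98e-06). CDK2 fell less in resistant cells (0.50) and RBL2, a pocket protein, fell more (-0.54). CDK6 fell in both lines (-0.62 and -0.63), with a difference of -0.02 ± 0.14 (SE, adjusted p = 0.959). The CDK inhibitor CDKN1A rose in both (1.08 and 1.40), and its difference of 0.32 missed the threshold (adjusted p = 0.0508) but passed with RLE size factors (adjusted p = 0.038) and with DESeq2 (adjusted p = 0.01). With mitochondrial scaling no G1 gene passed, and CDK2 and RBL2 did not pass on log2 TPM.

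BRD2 and BRD3, which encode BET proteins, showed no called difference. BRD2 stood at 90.4 and 98.5 CPM with DMSO and 383 and 390 CPM with JQ1 in parental cells, against 83.2 and 89.2 CPM with DMSO and 347 and 356 CPM with JQ1 in resistant cells. It rose in both lines (log2 2.03 and 2.03), with a difference of -0.00 ± 0.10 (SE, adjusted p = 0.99). BRD3 did not pass either (log2 -0.21 ± 0.11, SE, adjusted p = 0.27). HEXIM1 rose from 35.2 and 44.8 CPM to 230 and 237 CPM in parental and from 56.1 and 61.2 CPM to 246 and 242 CPM in resistant cells, and the log2 ratio of resistant to parental cells was 0.55 with DMSO and 0.06 with JQ1. Its difference was -0.49 ± 0.13 (SE, adjusted p = 0.0221), and the call was lost without parental DMSO replicate 1, parental JQ1 replicate 2, resistant DMSO replicate 2 or either resistant JQ1 library, and on TPM or FPKM. SERPINI1, another gene that rises with BET inhibition, did not pass (-0.30 ± 0.36). Of 34 BET and elongation genes tested 1 was higher and 2 were lower, 8.82% beside 9.65% of all genes, and none passed with mitochondrial scaling.

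MYC rose with JQ1 in both lines, at 81.7 and 83.4 CPM with DMSO and 120 and 116 CPM with JQ1 in parental cells, against 66.5 and 63.5 CPM with DMSO and 136 and 139 CPM with JQ1 in resistant cells. The rise was larger in resistant cells, with a log2 difference of 0.56 ± 0.10 (SE, adjusted p = 0.00115), and was lost with mitochondrial scaling and on log2 TPM. BCL2L1, an inhibitor of apoptosis, fell in both lines and less in resistant cells (0.60 ± 0.12 SE, adjusted p = 0.00252). Its summed transcripts made up only 0.736 of the level in the deposited gene table, so its counts are partial. The call was lost with mitochondrial scaling (0.33), with length-scaled TPM (0.29), on log2 TPM (0.24) and on log2 FPKM (0.22). IL1B, interleukin 1 beta, fell in both lines (log2 -5.73 and -5.90), from 33.8 and 32.1 CPM and 168 and 171 CPM, and the difference did not pass (-0.18 ± 0.25, adjusted p = 0.745). It did pass on log2(TPM + 1) (-1.29, adjusted p = 0.0116) and log2(FPKM + 1) (-1.34, adjusted p = 0.00472).

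Matrix genes went both ways. Of 46 tested members of the mesenchymal and extracellular matrix list 10 were higher and 12 lower, with a median of -0.02. Together 47.8% were called, beside 9.65% of all genes. The higher members included proteases and the plasminogen system: MMP1, PLAU (urokinase, 0.93) and its receptor PLAUR (0.56). TIMP1, a metalloproteinase inhibitor, stood at 374 and 439 CPM with DMSO and 504 and 490 CPM with JQ1 in parental cells, against 744 and 820 CPM with DMSO and 2168 and 2378 CPM with JQ1 in resistant cells, with a difference of 1.25 ± 0.12 (SE, adjusted p = 1.98e-06). The lower members included fibrillar collagens, COL1A2 (-0.78), COL1A1 (-0.66), COL5A1 (-0.68) and COL5A2 (-0.43), and the mesenchymal factors SNAI2 (-0.58) and TWIST1 (-0.58). COL1A2 fell from 371 and 381 CPM to 203 and 189 CPM in parental and from 351 and 349 CPM to 106 and 106 CPM in resistant cells. MMP2, a gelatinase, rose in parental cells (0.54) and did not pass in resistant cells (-0.14), with a difference of -0.68.

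Some of these genes also mark fibroblasts. The summed level of the 6 fibroblast markers was 300 to 301 CPM in parental DMSO, 108 to 128 CPM in parental JQ1, 62.5 to 64.6 CPM in resistant DMSO and 13.3 to 15.6 CPM in resistant JQ1, most of it COL1A1. DCN and COL3A1 stayed under 1 CPM in all libraries, LUM ranged from 0 to 1.37 CPM, PDPN from 0 to 11.7 CPM and PDGFRB from 2.2 to 16.6 CPM. The part of other cells in the matrix result was not tested.

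The 12 lower matrix members became 6 without resistant DMSO replicate 2 and 7 without either resistant JQ1 library, and mitochondrial scaling left 2 higher and 1 lower. TIMP1 (1.01 on that scale) and COL1A2 (-1.04) were not among those left. The PLAUR promoter is shown as that of a called member that holds the AP-1 letters TGANTCA. It lies at chr19:43670140-43670419 (minus strand, same build and window), and the capitals begin 186 bases before the start.
PLAUR: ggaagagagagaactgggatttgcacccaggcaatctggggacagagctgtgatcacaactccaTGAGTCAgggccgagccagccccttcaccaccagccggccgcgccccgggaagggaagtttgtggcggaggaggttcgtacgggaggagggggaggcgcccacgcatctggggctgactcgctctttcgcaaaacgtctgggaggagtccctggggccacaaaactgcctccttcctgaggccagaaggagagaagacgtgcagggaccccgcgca
These letters stood in 4.7% of all matched promoters of tested protein-coding genes, in 6.04% of those of higher genes and in 4.61% of those of lower genes. An AP-1 run and an antioxidant response element can share bases.

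Receptors and ligands of tyrosine kinase signalling had 10 higher and 3 lower members of 32 tested, at a median of 0.01. Together 40.6% were called, beside 9.65% of all genes. The higher members were EPHA2, TGFA, EREG, EPHB2, HBEGF, HGF, FGFR1, FGF5, AXL and EGFR, of which TGFA, EREG and HBEGF encode ligands of the EGF receptor. EREG, epiregulin, fell in both lines and less in resistant cells, from 93.3 and 93.0 CPM to 19.6 and 20.7 CPM against 108 and 95.1 CPM to 43.4 and 38.6 CPM (0.90 ± 0.12 SE, adjusted p = 8.69e-05). The call of EREG was lost on log2 TPM and with mitochondrial scaling (0.63). HBEGF fell in parental cells (-1.02) and was at -0.05 in resistant cells. EPHA2, an ephrin receptor, fell from 38.3 and 35.3 CPM to 11.7 and 11.3 CPM in parental cells and stood at 8.18 and 8.44 CPM and 7.64 and 6.77 CPM in resistant cells, so that parental cells kept the higher level with JQ1 too. Its difference was 1.47 ± 0.15 (SE, adjusted p = 5.01e-06). EGFR itself had a difference of 0.33 (adjusted p = 0.0399). PDGFRB was a lower member (-1.21 ± 0.18 SE, adjusted p = 0.000265). Mitochondrial scaling left 2 higher and 2 lower.

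The NF-kB and inflammatory list had median responses of -1.06 in parental and -0.87 in resistant cells. Of 31 tested 6 were higher and 2 lower (25.8% called, beside 9.65% of all genes), at a median of 0.19. The 6 were LIF, IL1RN, CSF3 (1.34), TNFAIP3 (0.73), IL8 (1.18) and PTGS2 (0.69). CSF3, a granulocyte growth factor, fell from 136 and 172 CPM to 18.9 and 15.6 CPM in parental and from 108 and 117 CPM to 31.9 and 32.1 CPM in resistant cells. TNFAIP2 and SOD2 (-0.34) were lower. Without any one resistant library 1 member was lower, and mitochondrial scaling left 3 higher and 1 lower. Interferon-stimulated genes had no higher and 3 lower members of 40, 7.5% beside 9.65% of all genes. The 3 became 5 without parental DMSO replicate 1, 1 without resistant JQ1 replicate 1 and none with mitochondrial scaling.

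The ATF4 and unfolded protein response list held 10 higher and 3 lower members of 35, at a median of 0.19. Together 37.1% were called, beside 9.65% of all genes. ATF4, the transcription factor of the integrated stress response, stood at 101 and 105 CPM with DMSO and 85.0 and 82.5 CPM with JQ1 in parental cells, against 112 and 109 CPM with DMSO and 153 and 162 CPM with JQ1 in resistant cells. It fell slightly in parental and rose in resistant cells (0.81 ± 0.10 SE, adjusted p = 3.15e-05). Its partner DDIT3 (1.13) and the targets SESN2 (0.69) and ASNS (0.61) were also higher, while CEBPB was lower (-0.97). The count of higher members became 6 without resistant JQ1 replicate 2, and mitochondrial scaling left none higher and 2 lower. GADD45A, a stress gene that p53 can induce, rose from 26.9 and 25.9 CPM to 80.3 and 79.4 CPM in resistant cells, beside 36.4 and 37.1 CPM and 46.9 and 45.9 CPM in parental cells (1.26 ± 0.11 SE, adjusted p = 8.11e-07). Of the p53 list 33.3% were called, beside 9.65% of all genes. The p53 list as a whole had 7 higher and 3 lower of 30, with 4 higher without resistant JQ1 replicate 2, 1 lower without replicate 2 of either resistant group, and none with mitochondrial scaling.

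The called autophagy and lysosome genes, and the called genes of hypoxia and glycolysis, all had lower responses in resistant cells. Both called shares were near that of genes over 100 CPM. Of 44 autophagy genes 8 were lower and none higher, at a median of -0.17. This was 18.2% called, beside 9.65% of all genes and 18% of genes over 100 CPM. ULK1, the kinase that starts autophagy, stood at 79.1 and 80.8 CPM with DMSO and 172 and 152 CPM with JQ1 in parental cells, against 99.0 and 96.5 CPM with DMSO and 99.6 and 97.2 CPM with JQ1 in resistant cells, a rise in parental cells and no call in resistant cells (0.01, adjusted p = 0.923). Its difference was -1.01 ± 0.10 (SE, adjusted p = 5.01e-06). CTSK (-0.70) and GAA (-0.62), lysosomal enzymes, were also lower. Of 34 hypoxia and glycolysis genes 6 were lower and none higher, at a median of -0.06 beside -0.02 over all genes. This was 17.6% called, beside the same 9.65% and 18%. Among the 6 were HK2, a hexokinase (-0.69), and ADM, adrenomedullin (-0.50). ADM did not pass without resistant DMSO replicate 2 or either resistant JQ1 library, nor with mitochondrial scaling, with length-scaled TPM or on FPKM. The autophagy count became 5 without parental JQ1 replicate 2, resistant DMSO replicate 2 or resistant JQ1 replicate 1, and 3 without resistant DMSO replicate 1. The hypoxia count became 3 without parental JQ1 replicate 1 or resistant DMSO replicate 2 and 2 without either resistant JQ1 library. Mitochondrial scaling left 1 autophagy gene and no hypoxia gene.

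Genes of TGF-beta and BMP signalling went both ways, with 5 higher and 4 lower of 33 (27.3% called, beside 9.65% of all genes). The higher became 3 without resistant JQ1 replicate 2, the lower 2 without resistant DMSO replicate 2 or resistant JQ1 replicate 1, and mitochondrial scaling left none higher and 4 lower. LTBP1, which binds latent TGF-beta, fell from 118 and 100 CPM to 10.3 and 10.5 CPM in parental and from 223 and 224 CPM to 51.7 and 53.9 CPM in resistant cells (1.32 ± 0.12 SE, adjusted p = 1.98e-06). Its summed transcripts made up 0.677 of the deposited gene level, and with mitochondrial scaling it did not pass. ID3, a target of BMP signals, rose in parental cells, from 74.6 and 81.2 CPM to 192 and 186 CPM, and stood at 25.2 and 28.3 CPM and 28.3 and 31.2 CPM in resistant cells (-1.12 ± 0.12 SE, adjusted p = 5.11e-06). Its relative ID2 had a difference of -1.02. CTGF, a target of YAP, rose in both lines and further in resistant cells (1.16 ± 0.15 SE, adjusted p = 4.58e-05). The YAP/TEAD list held 6 higher and 1 lower of 24 (29.2% called, beside 9.65% of all genes), and none with mitochondrial scaling. AHR, the aryl hydrocarbon receptor, rose in parental cells (1.11) and did not pass in resistant cells (0.15, adjusted p = 0.0953), with a difference of -0.96 ± 0.10 (SE, adjusted p = 5.45e-06).

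Several lists were near or below the called share of all genes, 9.65%. Oxidative phosphorylation genes encoded in the nucleus had 1 called member of 44 (2.27%), and the mitochondrially encoded mRNAs none of 13. The cereblon ligase and NEDD8 list had 1 of 15 (6.67%), and homologous recombination genes 3 of 34 (8.82%). With mitochondrial scaling none of the nuclear oxidative phosphorylation, cereblon and NEDD8, homologous recombination or mitotic genes passed. For the mitochondrially encoded mRNAs the median difference was 0.09 with TMM. The stress chaperone HSPA1B rose less in resistant cells (-0.86), with the reservation that its near-identical copy HSPA1A shares its reads.

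**Figure D4:**
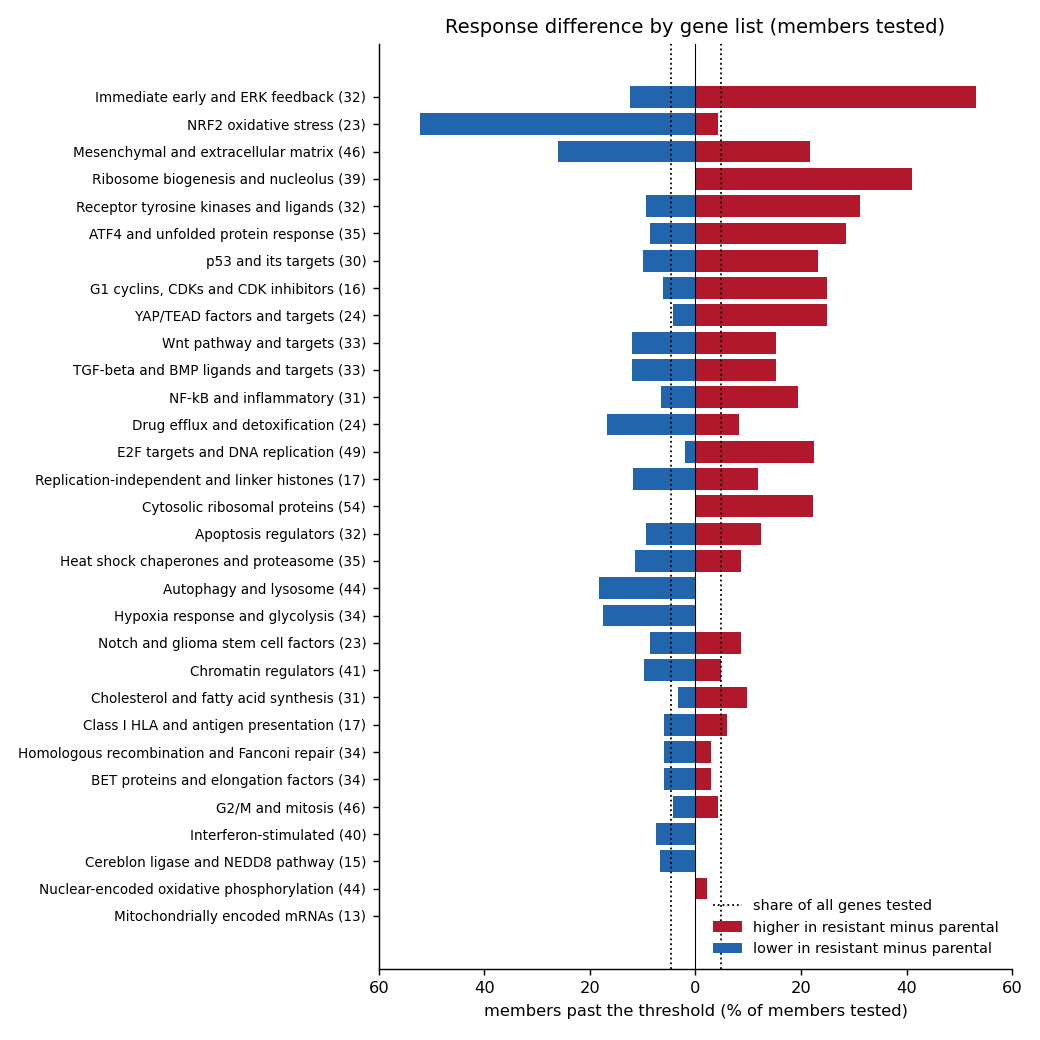
Share of the tested members of each of 31 gene lists with a higher (red, right) or lower (blue, left) JQ1 response in resistant cells, with the number tested in brackets; dotted lines mark the shares over all genes, 4.92% higher and 4.73% lower. The immediate early and ERK list reaches furthest to the right (17 of 32) and the NRF2 list furthest to the left (12 of 23).

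The difference in response is set beside the lines' own difference. Without JQ1 21.0% of genes were higher and 24.2% lower in the resistant line, and with JQ1 19.1% were higher and 22.9% lower. With mitochondrial scaling 935 were higher and 3657 lower without JQ1, and 519 and 7088 with it. These comparisons share libraries with the response difference and are given only as levels. EPHA2 differed by -2.15 on the log2 scale with DMSO and by -0.68 with JQ1. CCND1 went from -0.32 to 0.74, and LIF from 0.97 to 2.81. NQO1 went from -0.36 to -1.44, and PTGES from -2.27 to -3.88.

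dBET6 degrades BET proteins through the cereblon ubiquitin ligase. At the same dose and time, the difference between lines in the step from JQ1 to dBET6 was higher for 14.6% and lower for 15.5% of 19093 genes in a fit of all 12 libraries, or 1272 and 5951 genes with total counts. A value of 0 here means that the lines differed as much under dBET6 as under JQ1. The comparison contains the JQ1 libraries with the opposite sign, so opposite values are partly built in. For MMP1 it was -1.76 ± 0.17 (adjusted p = 2.45e-08), for LIF -2.17 ± 0.18 (adjusted p = 1.15e-09) and for CCND1 -1.24 ± 0.12 (adjusted p = 1.12e-08). METTL7B had 2.42 and SPRY2 1.72, the same sign as their JQ1 difference, so the lines differed still more under dBET6. MYC was also further apart (1.66 ± 0.12, adjusted p = 1.38e-10). NQO1 (1.14), HMOX1 (1.02) and PTGES (1.33) had values opposite to their JQ1 difference, while GCLM had the same sign (-1.18). ULK1 did not pass (0.32 ± 0.14, adjusted p = 0.105).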

How the data were processed

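RNA-seq of polyA RNA was analysed for 8 libraries of 2 U87 lines, and for 4 further dBET6 libraries in 1 comparison. The authors deposited kallisto estimated counts and TPM per transcript, per the file headers, and a separate table of FPKM per gene, per the file headers. The genome build hg19, kallisto and DESeq2 are named in the submitters' processing notes, and no version is given in the sources used here. Of 196354 transcripts, 92.62% could be paired with a gene through the transcript names of GENCODE, and they held 95.85% to 96.16% of the counts of the 8 libraries. The remainder was left out.

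Per gene, the estimated counts of its transcripts were added up and rounded. Genes were filtered with filterByExpr and scaled with TMM, and 17556 were tested with edgeR's quasi-likelihood test (edgeR 4.0.16, R 4.3.3) and a mean for each group, which left 4 residual degrees of freedom. Benjamini-Hochberg adjustment ran over all genes tested, and calls needed an adjusted p under 0.05. CPM values are scaled by TMM and not by length, so they compare libraries within a gene. Only the levels given for cell type markers, their sums and the CDKN2A region were scaled by total counts. The biological coefficient of variation was 7.16%, and the shallowest library held 31346557 estimated counts, which limits precision mainly for genes under 1 CPM. The fit was tested on simulated data.

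Named genes were the 12 largest differences each way among called protein-coding genes whose mean reached 5 CPM and whose libraries were separated, 11 genes named in any case, and up to 3 members of each of 31 lists with the smallest p. Some genes that the rule selects are not reported here. Members and lists were chosen with earlier results of these data known. No pairing of the libraries by the replicate numbers 1 and 2 was seen: deviations from the group means correlated at -0.061 to 0.075 across genes. Genes under 1 CPM were included, so a weak pairing is not excluded. Alternatives covered other scalings, filters, DESeq2 1.42.0, limma 3.58.1 on log2 TPM or FPKM, a fold threshold, a replicate block and leaving out each library.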

Additional observations from a re-analysis of the deposited data

Results flagged for a closer look

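The difference in response between the lines was itself tested, and each value here passed that test by edgeR's quasi-likelihood test at an adjusted p under 0.05. It was found for 864 genes in the higher and 831 in the lower direction. The higher log2 differences, resistant minus parental, were 3.05 for MMP1, 2.42 for TMCC3, 1.96 for HAS1, 1.84 for LIF, 1.80 for NEK10, 1.72 for C3orf52, 1.68 for TIMP3, 1.59 for METTL7B, 1.55 for TGFA, 1.53 for SERPINB2, 1.49 for IL1RN and 1.47 for MAFF. The lower ones were -2.78 for TNFAIP2, -2.40 for PSG4, -1.76 for P2RX6, -1.75 for CDH23, -1.68 for COL4A2, -1.65 for TMEM86A, -1.63 for SLITRK5, -1.61 for PTGES, -1.61 for MCF2L, -1.51 for JAG2 and -1.46 for RXRA. HAS1, TIMP3, TNFAIP2 and SLITRK5 reached a mean of 5 CPM through the parental line and were scarce in the resistant line. CDH23 reached that mean only through parental JQ1, and its other groups averaged 1.30 to 2.55 CPM. SLITRK5 has no settled direction, and COL4A2 compares levels close to 0 and did not pass with DESeq2. Of the genes named in any case, HEXIM1 had -0.49, MYC 0.56, CCND1 1.06 and BCL2L1 0.60. Groups of 2 libraries are too small for a check of single outlying libraries.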

How the results depend on the processing

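Counts are given as higher and lower genes. The response difference had 864 and 831. Without 1 library they ran from 382 to 1202 and from 377 to 1071. With all 12 libraries 692 and 549 passed, with the replicate block 753 and 735, with a fold threshold of 1.5 67 and 62, with length-scaled TPM 318 and 235, on log2 TPM 184 and 181 (pseudocount 1) or 152 and 157 (pseudocount 0.1), and on log2 FPKM 282 and 143. Mitochondrial scaling gave 55 and 251. RLE size factors gave 978 and 752, total counts 647 and 1112, DESeq2 975 and 651, no filter 1168 and 939, and a mean of at least 10 CPM 710 and 901. Higher genes were 51.0% of the calls, and 60% with DESeq2, 66.4% on FPKM and 36.8% with total counts. All calls shared with an alternative had the same sign, 52 genes were called in every alternative but the fold threshold, and 538 were called without each library in turn. The cause of these shifts was not tested.

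The other comparisons moved as follows. With total counts the resistant JQ1 response had 2578 higher, and the step from JQ1 to dBET6 had 1272 and 5951. With mitochondrial scaling the parental JQ1 response had 1462 higher, the resistant one 569 and 8051, the lines in DMSO 935 higher, the lines in JQ1 519 and 7088, and the dBET6 step 916 and 1089. At 10 CPM the parental response had 3193 lower, the lines in DMSO 2492 and in JQ1 2606 lower, with fewer genes tested. On log2 TPM with pseudocount 1 or 0.1 the higher genes were 2043 or 2025 for the parental response, 1449 or 1402 for the resistant one, 2108 or 2016 for the lines in DMSO (lower 2611 or 2484), 1803 or 1804 for the lines in JQ1 and 930 or 847 for the dBET6 step. On FPKM the lines had 1906 higher in DMSO and 2144 and 2648 in JQ1, and the dBET6 step 1742 lower (1882 with length-scaled TPM). With the fold threshold the counts were 1581 and 2031 (parental), 1042 and 1704 (resistant), 803 and 1259 (lines in DMSO), 701 and 1254 (lines in JQ1) and 657 and 666 (dBET6 step).

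Of the named genes, 73 lost their call with mitochondrial scaling. SLITRK5 changed sign, to 0.98 and 0.16 on log2 TPM (pseudocount 1 and 0.1) and 0.80 on FPKM. ATM went to 0.02 with length-scaled TPM and 0.02 on FPKM, and NOTCH3 to 0.33 on log2 TPM (pseudocount 1) and 0.28 on FPKM. No pairing by replicate number was seen, and with the block 2 named genes lost their call. Depth limits the genes under 1 CPM, of which 1.71% were called.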
